A study of Mus musculus with 6 samples.

Results

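The 9 genes described here are Gad1, Gad2, Slc32a1, Slc6a9, Tfap2a, Tfap2b, Pax6, Calb2 and Pvalb, a set of genes of the inhibitory neurons of the inner retina. They were taken by gene symbol, with earlier results of these data known, from the 19401 genes listed in at least 1 of 6 retinal libraries. All 9 had enough reads to be among the 15537 genes tested (at least 10 counts in at least 3 libraries). None of the 9 was called between efavirenz (EFV)-treated and control mice, and neither was any other of the 15537 genes tested (0.00% called, edgeR, adjusted p of 0.05 or less). The 95% interval of each member's difference included 0. The differences were small: between -0.06 and 0.07 on the log2 scale, with 3 pools of mice per group.

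Retinal RNAseq compared EFV-treated with control 5XFAD mice, 3 libraries per group. All animals were hemizygous for transgenes that encode mutant human amyloid precursor protein and mutant human presenilin 1, on a B6SJL background, so the control group carries the disease model too, and mice without the transgenes were not analysed here. EFV, an anti-HIV drug given here at a low dose, was in the drinking water from 3 to 9 months of age, and control animals received the same vehicle (a dilute polysorbate detergent) without the drug. The sample labels give the dose as 0.08 mg/kg of body weight and the methods as 0.1 mg/kg per day. A library holds 1 retina with its retinal pigment epithelium (RPE) from each of 5 to 6 mice of 9 months, which the methods describe as male, and the spread between libraries is therefore a spread between such pools. RNA was from whole tissue, in which fewer cells of a type and less RNA per cell cannot be told apart.

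Amacrine cells are interneurons of the inner retina that act on bipolar cells, ganglion cells and each other, and most release GABA or glycine. GABA is made from glutamate by glutamate decarboxylase, which exists as GAD67 (Gad1) and GAD65 (Gad2), and is loaded into synaptic vesicles together with glycine by the vesicular inhibitory amino acid transporter (Slc32a1). Glycinergic amacrine cells carry the glycine transporter GlyT1 (Slc6a9) at the cell surface. Transcription factors AP-2α (Tfap2a), AP-2β (Tfap2b) and PAX6 (Pax6) take part in amacrine cell fate and stay on in the adult cells, and the calcium-binding proteins calretinin (Calb2) and parvalbumin (Pvalb) label amacrine subtypes. Several of the genes are used by other retinal cells as well: Calb2, Pvalb and Pax6 by ganglion cells and Slc32a1 by horizontal cells.

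The libraries held 23455167 to 24590278 expected counts assigned to genes. The label of retina was borne out by markers of bipolar cells, interneurons of the retina, whose summed level (7 genes) lay between 556.0 and 613.9 FPKM (fragment counts normalised for gene length and for library size), and all 9 members were detected in all 6 libraries. Control library 3 stood apart from the others through lens genes: the sum of 7 lens markers was 435.7 FPKM there and 5.04 to 16.7 FPKM in the other 5 libraries. The Y-linked gene Ddx3y had an FPKM of 5.08 in EFV library 3 and 10.4 to 14.4 in the other 5, and Eif2s3y, Kdm5d and Uty were also lowest in EFV library 3. The sum of 5 RPE markers was 13.4 to 24.2 FPKM in control and 21.0 to 27.7 FPKM in EFV-treated mice. The part of these differences in the values of the members was not tested, and member values without control library 3 and without EFV library 3 follow the tests of all members. For the cells that share some members, 7 ganglion cell markers summed to 416.0 to 456.9 FPKM in control and 424.6 to 464.7 FPKM in EFV-treated mice, and 3 horizontal cell markers to 3.23 to 3.63 FPKM and 3.13 to 3.70 FPKM.

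The levels of the members spanned a wide range. Averaged over the 6 pools, Calb2 was highest, with an FPKM of 227.6 ± 9.57 (SD, n = 6 pools, as for the genes that follow). Gad1 had 90.9 ± 5.08, Pax6 81.9 ± 2.56, Slc6a9 69.0 ± 2.35 and Slc32a1 47.7 ± 1.93 FPKM. Below these came Tfap2b with 31.2 ± 0.643, Pvalb with 17.3 ± 1.79, Gad2 with 11.98 ± 0.440 and Tfap2a with 11.45 ± 0.728 FPKM. Calb2 ranked 178th among the 15537 genes tested, and even the lowest member, Tfap2a, was above the median gene (7.66 FPKM). The ranges of neighbours in this order did not overlap across the 6 pools, with the exception of Gad2 and Tfap2a, where Gad2 was the higher gene in 4 of 6 pools. The closest of the separated neighbours were Gad1 and Pax6, whose means differed 1.11-fold.

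**Figure D1:**
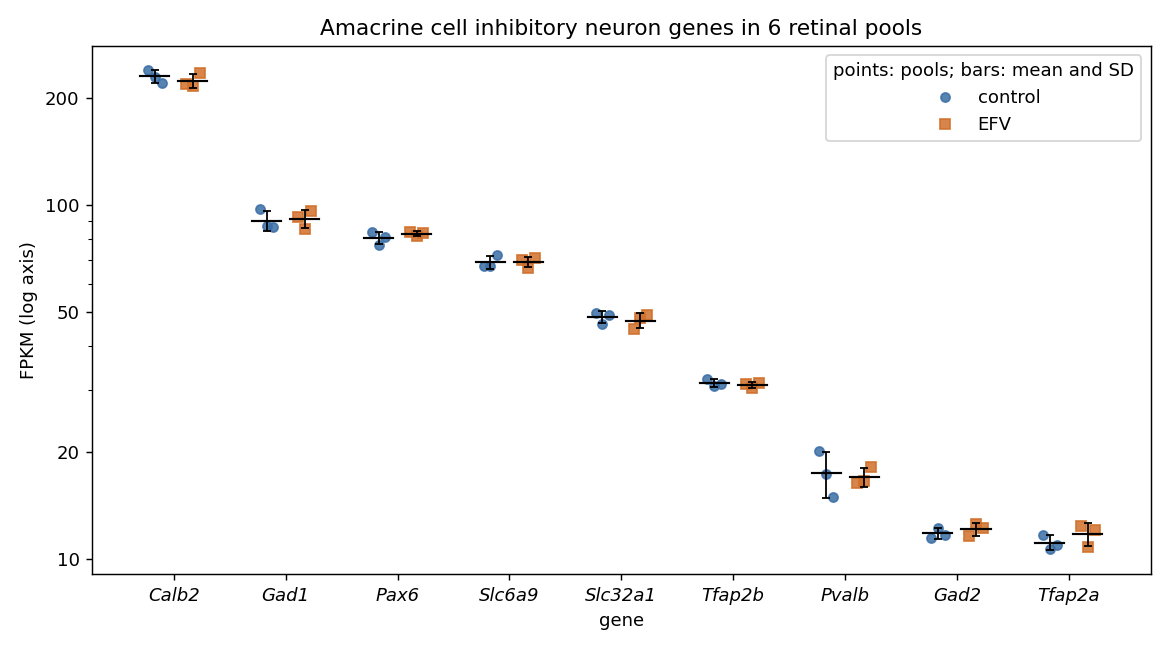
FPKM (log axis) of each of the 9 genes in the 3 control pools (circles) and the 3 EFV pools (squares), ordered by mean level, with black bars for the mean and SD of each group. The groups overlap for every gene, from Calb2 with a mean of 227.6 FPKM down to Tfap2a with 11.45 FPKM.

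Among the genes that make GABA, Gad1 (Entrez 14415, chromosome 2 from 70561303 to 70602014 on mm10) had FPKM values of 97.1, 87.0 and 86.7 in control pools 1, 2 and 3 and of 92.5, 85.8 and 96.3 in EFV pools 1, 2 and 3. The highest pool was a control pool and the lowest an EFV pool, and the groups overlapped. The log2 fold change of Gad1 (EFV over control) was 0.01 with a 95% interval from -0.13 to 0.14 (standard error 0.06, adjusted p = 0.999, edgeR quasi-likelihood, Benjamini-Hochberg over all genes tested). Gad2 (Entrez 14417, chromosome 2 from 22621015 to 22693877) was much lower than Gad1, with 11.5, 12.3 and 11.7 FPKM in the control pools and 11.6, 12.6 and 12.2 FPKM in the EFV pools. These groups overlapped too, and the log2 fold change of Gad2 was 0.02 with an interval from -0.10 to 0.14 (adjusted p = 0.999, edgeR).

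Gad1 exceeded Gad2 in every pool. The ratio of their FPKM values within a pool was 8.46, 7.10 and 7.39 in control and 7.98, 6.81 and 7.87 in EFV-treated mice, with means ± SD over 3 pools of 7.65 ± 0.717 and 7.55 ± 0.643. On the log2 scale the ratio differed between the groups by -0.02 (exact permutation test, two-sided, p = 1). The sign of this difference was not stable, being 0.057 without control pool 1, 0.055 without EFV pool 2 and -0.070 without control pool 2. Only a p of 0.1 or more is possible with 3 pools against 3 in this test.

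The transporters that handle GABA and glycine were also alike in both groups. Slc32a1 (Entrez 22348, chromosome 2 from 158607260 to 158615747) had FPKM values of 49.6, 46.0 and 48.9 in control and of 44.7, 47.9 and 48.9 in EFV-treated mice, and the lowest was in EFV pool 1. Its log2 fold change was -0.05 with an interval from -0.16 to 0.06 (adjusted p = 0.999, edgeR). Slc6a9 (Entrez 14664, chromosome 4 from 117835258 to 117869305) had 67.3, 67.1 and 72.2 FPKM in control and 69.8, 66.5 and 71.0 FPKM in EFV-treated mice, with a log2 fold change of -0.01 and an interval from -0.12 to 0.09 (adjusted p = 0.999, edgeR). The pool with the most Slc6a9 was control pool 3 and that with the least EFV pool 2. The sign of this small value was not stable, being positive when total counts or FPKM values took the place of TMM-scaled counts.

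The glycine transporter exceeded the vesicular transporter in each pool, 1.36- to 1.56-fold. The ratio of Slc6a9 to Slc32a1 averaged 1.43 ± 0.0630 over the control pools and 1.47 ± 0.0896 over the EFV pools (mean ± SD, n = 3 each), and the difference of 0.04 on the log2 scale had an exact permutation p = 0.6 (two-sided). It was -0.0010 without control pool 1 and -0.011 without EFV pool 1, and 0.076 without EFV pool 2.

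The transcription factors were likewise close between the groups. Pax6 (Entrez 18508, chromosome 2 from 105668896 to 105698410), a regulator of eye development, had FPKM values of 83.7, 77.3 and 81.0 in control and of 84.1, 81.7 and 83.4 in EFV-treated mice. Control pool 2 was the lowest of the 6 and the groups overlapped. The log2 fold change of Pax6 was 0.02 with an interval from -0.08 to 0.12 (adjusted p = 0.999, edgeR). Control pool 3, in which lens markers were high, was in the middle of the control pools for Pax6, a gene that the lens also expresses, and the log2 fold change without that pool was 0.03.

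Tfap2b (Entrez 21419, chromosome 1 from 19208908 to 19238845) had 32.3, 30.8 and 31.2 FPKM in control and 31.2, 30.4 and 31.5 FPKM in EFV-treated mice. These FPKM values overlapped, whereas the CPM values (counts relative to library size after TMM scaling) did not: they were 176.8, 179.6 and 174.5 in control and 172.1, 171.7 and 173.9 in EFV-treated mice. FPKM is relative to the library total without TMM scaling, and is divided by a gene length that RSEM estimates from the mix of transcripts. That length was 5534, 5786 and 5617 bases in the control libraries and 5611, 5658 and 5640 bases in the EFV libraries. Counts relative to the library total without TMM scaling overlapped before any division by length, so the separation of the groups depended on the TMM scaling. Tfap2b was the 1 member of the 9 whose groups did not overlap in CPM, and the same held for 8.14% of all genes tested. Its log2 fold change was -0.04 with an interval from -0.13 to 0.05 (adjusted p = 0.999, edgeR), the narrowest interval of the 9.

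Tfap2a (Entrez 21418, chromosome 13 from 40713802 to 40738238) had 11.7, 10.7 and 10.96 FPKM in control and 12.4, 10.8 and 12.1 FPKM in EFV-treated mice. The EFV pools 1 and 3 were the highest of the 6 and EFV pool 2 lay among the control pools. The log2 fold change of Tfap2a was 0.07, the highest among the members, with an interval from -0.08 to 0.21 (adjusted p = 0.999, edgeR). The ratio of Tfap2b to Tfap2a was 2.75, 2.88 and 2.85 in the control pools and 2.51, 2.82 and 2.60 in the EFV pools. This was the ratio with the smallest p of the 3 computed, with a log2 difference of -0.10 (exact permutation p = 0.2, two-sided, or 0.6 after Benjamini-Hochberg adjustment over the 3 ratios). It lay between -0.14 (without EFV pool 2) and -0.061 (without EFV pool 1) when 1 pool was left out.

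**Figure D2:**
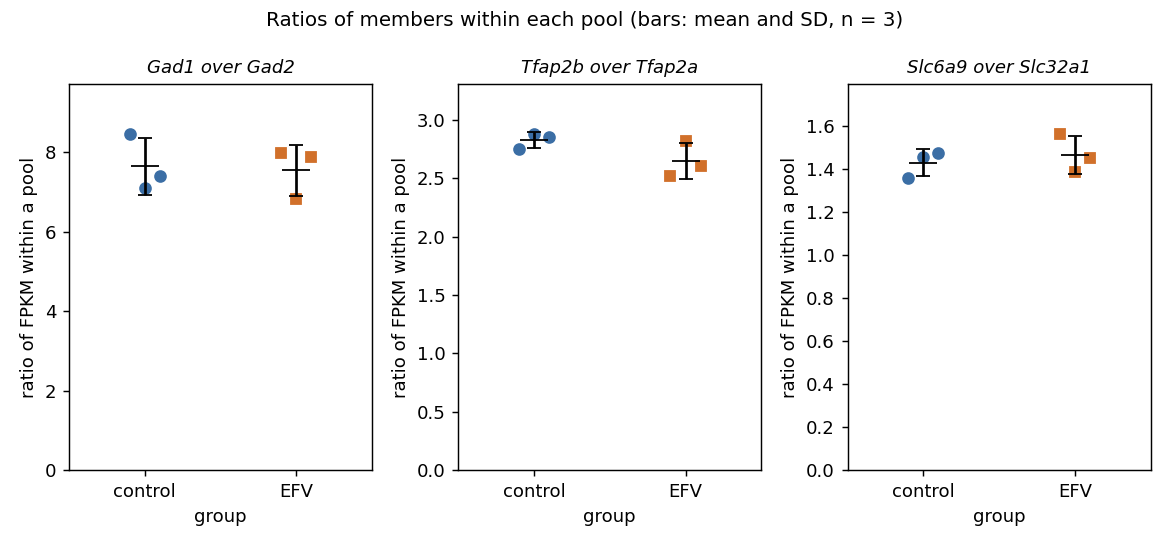
Ratio of the FPKM values of member genes within each pool (vertical axes from 0), with circles for control and squares for EFV pools and black bars for the mean and SD of 3 pools. The ratio of Gad1 to Gad2 lies between 6.81 and 8.46, that of Tfap2b to Tfap2a between 2.51 and 2.88 and that of Slc6a9 to Slc32a1 between 1.36 and 1.56, and the groups overlap in all 3 panels.

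Of the calcium-binding proteins, Calb2 (Entrez 12308, chromosome 8 from 110142526 to 110168212) had FPKM values of 240.5, 230.3 and 221.1 in control and of 220.2, 217.0 and 236.2 in EFV-treated mice. The lowest values were in EFV pools 1 and 2, and EFV pool 3 was above 2 of the control pools. The log2 fold change of Calb2 was -0.06 with an interval from -0.17 to 0.06 (adjusted p = 0.999, edgeR). Pvalb (Entrez 19293, chromosome 15 from 78191112 to 78206400) varied the most, with 20.2, 17.4 and 15.0 FPKM in control and 16.4, 16.6 and 18.2 FPKM in EFV-treated mice. Control pools 1 and 3 were the highest and the lowest of all, so the EFV pools lay inside the control range. The log2 fold change of Pvalb was -0.06 with an interval from -0.30 to 0.19 (adjusted p = 0.999, edgeR), the widest of the 9, and it was 0.05 without control pool 1 and -0.16 without control pool 3.

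Pvalb also had the fewest reads. It had 339 to 462 expected counts per library, for which counting alone gives a coefficient of variation of 5.07%, and its observed coefficient was 15.0% in control and 5.93% in EFV-treated mice. For Gad1, with 6568 to 7681 counts, counting gives 1.19% and the observed values were 6.56% and 5.82%. For Tfap2b the observed values of 2.47% and 1.82% were close to the 1.54% given by counting.

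None of the 9 genes was called at an adjusted p of 0.05 or less by edgeR, as for all genes tested (0.00% called), and none had an unadjusted p of 0.05 or less, a limit passed by 3.04% of all genes. The smallest unadjusted p of edgeR among the members was 0.288, for Calb2. DESeq2 likewise gave none of the members an adjusted or unadjusted p of 0.05 or less, and called 11 of all genes. Of the 9 log2 fold changes 4 were above 0 and 5 below, between -0.06 and 0.07 with a median of -0.01, against a median of 0.00 over all genes, of which 50.5% were above 0. With total counts in place of TMM scaling, which moved the median of all genes to 0.02, 5 of 9 members were above 0. Without control pool 2 the number above 0 was 2 of 9, the change of sign being in Gad1 (-0.01) and Pax6 (-0.0015). Without control pool 3, the library with high lens markers, the log2 fold changes were -0.02 for Gad1, 0.01 for Gad2, -0.04 for Slc32a1, 0.02 for Slc6a9, 0.05 for Tfap2a, -0.05 for Tfap2b, 0.03 for Pax6, -0.09 for Calb2 and -0.16 for Pvalb. Without EFV pool 3, the library with low Y-linked genes, they were -0.03 for Gad1, 0.02 for Gad2, -0.07 for Slc32a1, -0.03 for Slc6a9, 0.05 for Tfap2a, -0.04 for Tfap2b, 0.02 for Pax6, -0.09 for Calb2 and -0.10 for Pvalb. No member was called without either pool, and the signs that turned were those of Gad1 in both cases and of Slc6a9 in the first. Expressed as folds of EFV over control, the intervals of the members other than Pvalb and Tfap2a lay within 0.888 to 1.10. The interval was 0.946 to 1.16 for Tfap2a and 0.813 to 1.14 for Pvalb, and differences beyond these bounds are outside the 95% intervals. The half-width of the interval on the log2 scale ran from 0.09 for Tfap2b to 0.24 for Pvalb.

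**Figure D3:**
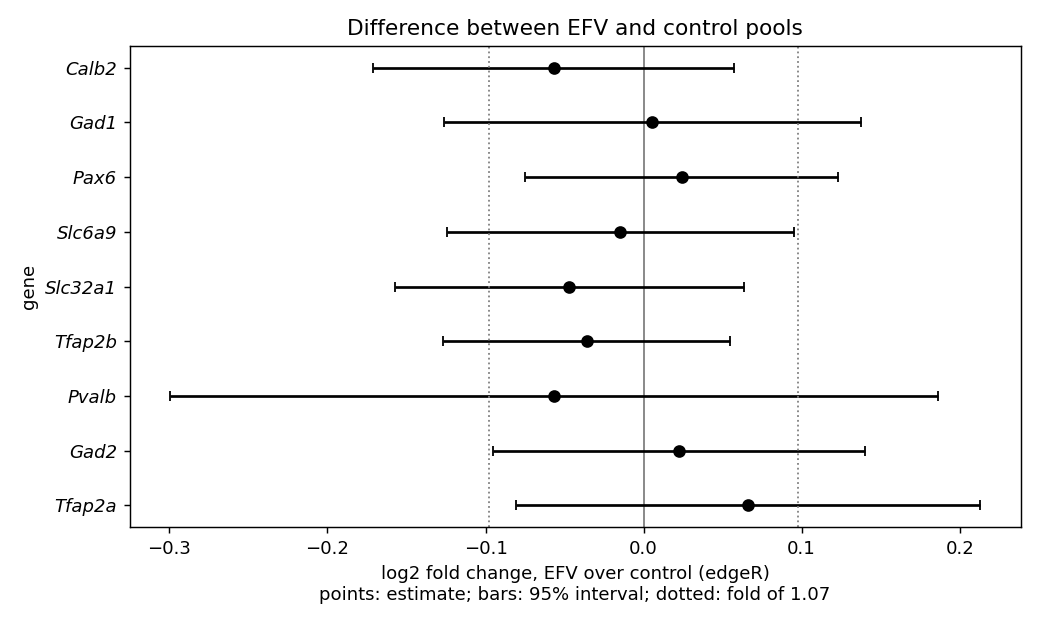
Log2 fold change of each gene, EFV over control, as estimated by edgeR (points) with its 95% interval (bars); dotted lines mark the smallest fold that the methods of the study count as a change. All 9 intervals include 0, and all estimates lie between -0.06 and 0.07. Each interval also reaches past a dotted line on at least 1 side.

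The pools differed from each other in the members more than the groups did. Relative to the mean of each gene over the 6 pools, 8 of the 9 members were above their mean in EFV pool 3 and 7 of 9 in control pool 1, against 2 of 9 in EFV pool 2. The mean deviation over the members was 0.05 in control pool 1 and 0.03 in EFV pool 3 and -0.03 in control pool 3 and EFV pool 2 on the log2 scale. The member furthest from its own mean was Pvalb, by 0.23 in control pool 1 and by -0.19 in control pool 3. Gad1 and Gad2 did not deviate together: in control pool 1 Gad1 was above its mean by 0.09 and Gad2 deviated by -0.07, and in EFV pool 2 the deviations were -0.07 and 0.08.

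**Figure D4:**
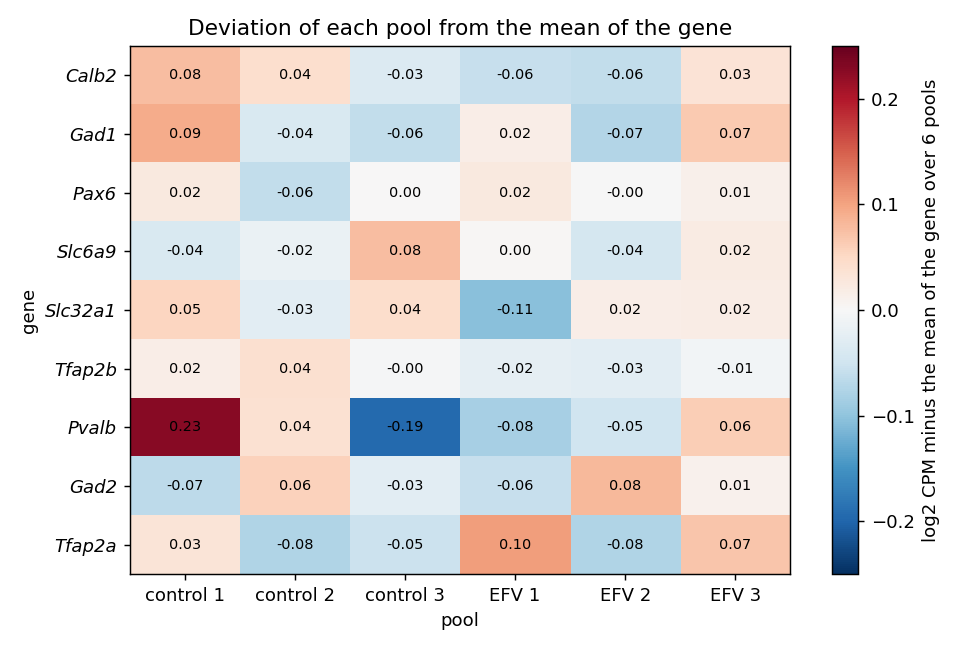
Deviation of each pool (columns) from the mean of each gene (rows), in log2 CPM after TMM scaling, with the value printed in each cell and red for values above the mean. Pvalb runs from 0.23 in control pool 1 to -0.19 in control pool 3, and of the other genes Slc32a1 and Tfap2a go furthest, to -0.11 and 0.10 in EFV pool 1.

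Among 12285 other genes with an Entrez identifier and a mean FPKM of at least 1, those whose pattern over the 6 pools was most like the mean standardised pattern of the members were Sod1 (Pearson's r 0.986, Spearman's rank correlation 0.943), Atp6v1e1 (0.986 and 1), Alg1 (0.985 and 1), Tomm7 (0.981 and 0.943) and Lamtor4 (0.979 and 0.886). As the best of so many genes over only 6 points these values are a description, without a test, and 142 genes had a Pearson's r above 0.9.

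Other genes of inhibitory transmission and of amacrine cells, and relatives of the members, were read from 7 lists of 88 genes, of which 83 were tested. Of these, 44 lay above and 39 below 0 in log2 fold change (EFV over control, median 0.01), and none had an unadjusted p of 0.05 or less in edgeR. The medians of 6 of the 7 lists changed sign when 1 library or another was left out, and the exception, the other genes of GABA synthesis, breakdown and uptake, kept a median above 0. For the genes named below, the standard errors of the log2 fold changes lay between 0.04 and 0.14. Other genes of GABA synthesis, breakdown and uptake were all on one side, with log2 fold changes above 0 for 7 of 7 (0.01 to 0.34, median 0.03), but none passed the test, and 5 of 7 were above 0 without EFV pool 2. Among them, the GABA transporter Slc6a11 (GAT3) had 46.0 FPKM over all pools and a log2 fold change of 0.02. Of the genes of glycine transport and metabolism 2 lay above and 4 below 0 (median -0.02), with 3 on each side under total counts and 4 above and 2 below without control pool 2. Shmt2, a serine hydroxymethyltransferase, had 18.6 FPKM and a log2 fold change of 0.01, and Amt, of the glycine cleavage system, had 15.5 FPKM and -0.01.

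On the receiving side, 7 of the 18 tested GABA receptor subunits lay above 0 and 11 below (median -0.01), and with total counts it was 11 above and 7 below. Gabbr1, a subunit of the metabotropic GABA-B receptor, had 44.5 FPKM and a log2 fold change of -0.02, and Gabrr1, a subunit of an ionotropic GABA receptor of bipolar cells, had 41.9 FPKM and -0.02. Of the glycine receptor subunits and the scaffold of inhibitory synapses 4 lay above and 3 below 0 (median 0.00), and the receptor subunit Glrb had 25.9 FPKM and a log2 fold change of 0.01.

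For other transcription factors of amacrine cells the log2 fold change was above 0 in 12 and below 0 in 10 of 22 tested genes (median 0.02), and in 9 and 13 genes (median -0.04) without control pool 3. Neurod1, which photoreceptors also express, had 258.2 FPKM and a log2 fold change of -0.01, and Neurod4 had 55.6 FPKM and 0.03. Markers of amacrine subtypes, among them the enzymes and transporters of acetylcholine and dopamine cells and the neuropeptides, lay above 0 for 9 and below 0 for 8 of 17 genes, with a median of 0.01 and the widest range of these 7 lists, from -0.58 to 0.33. The lower and the upper end were genes of low level, with 0.53 and 0.59 FPKM and standard errors of 0.33 and 0.34. The most abundant were Gjd2 (connexin 36, the gap junction protein of AII amacrine cells) with 32.7 FPKM and a log2 fold change of 0.01, and the peptide gene Cck with 24.1 FPKM and -0.04. Relatives of the members split evenly, with 3 above and 3 below 0 of 6 tested. Calb1 (calbindin) was at 24.96 FPKM with a log2 fold change of 0.09, and Csad, a decarboxylase related to the glutamate decarboxylases, at 9.14 FPKM and 0.10.

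**Figure D5:**
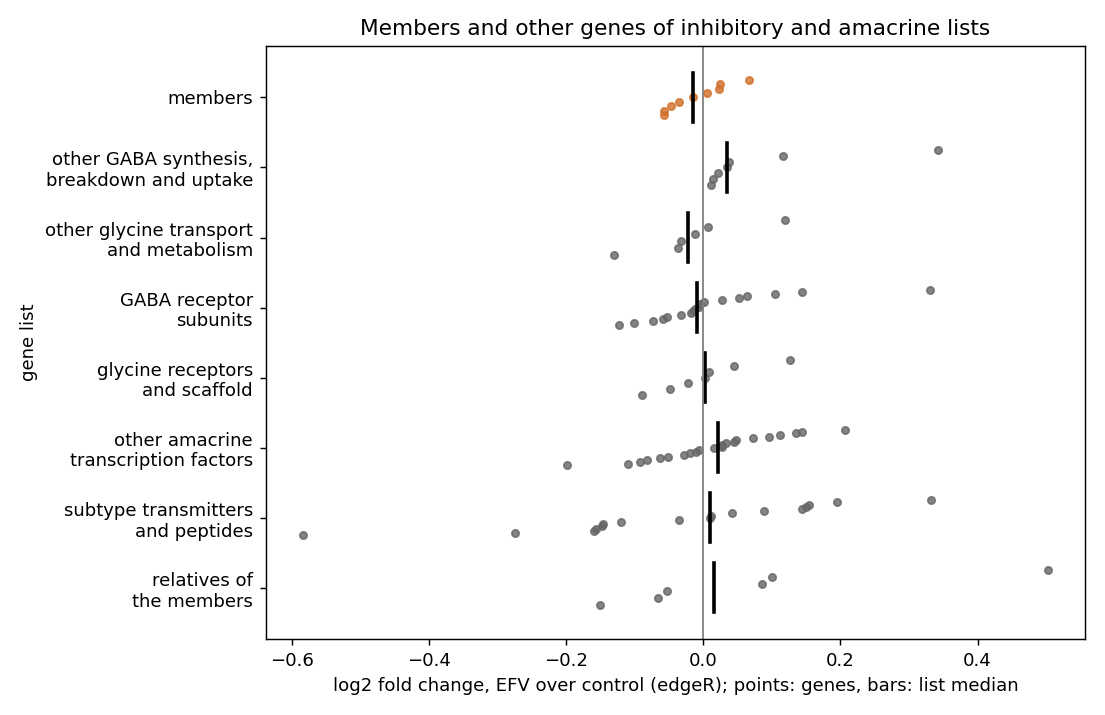
Log2 fold change, EFV over control, of the members (top) and of the genes of 7 other lists, with a point for each gene tested and a black bar for the median of each list. The medians lie between -0.02 and 0.03, and the members span a narrower range, from -0.06 to 0.07, than the subtype transmitters and peptides, from -0.58 to 0.33. The genes at the ends of the latter range have low levels, 0.53 and 0.59 FPKM.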

How the data were processed

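The authors aligned filtered reads to mm10 with Bowtie2 v2.2.5 and estimated gene levels with RSEM 1.2.12, whose expected counts are not normalized. The deposited FPKM values come from the same program, divided by gene length and library total, and a gene absent from a library was taken as 0. The submitters' processing notes also name HISAT2 2.0.4. Strandedness and the annotation release are not given in the sources used here. From start to end, Gad1, Gad2, Slc32a1, Tfap2a and Pax6 overlap noncoding genes (Gad1os, Mir3967, Gm14204, Gm26688 and Pax6os1) that have no values of their own in these data. Slc6a9 and Pax6 overlap Ccdc24 and Elp4, which do. Without strand, reads from a stretch shared by the exons of both genes cannot be told apart, and whether exons overlap was not tested. The counts of Gad2 and Pax6 were not whole numbers in any library, since RSEM had divided some reads.

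After rounding of the expected counts, a gene entered the fit if 3 or more of the 6 libraries reached 10 counts. The main test was edgeR 4.0.16 in R 4.3.3 (quasi-likelihood, TMM scaling, group as the only term, two-sided), with BH adjustment over all 15537 genes. Standard errors are the log2 fold change divided by the square root of F, and 95% intervals use the degrees of freedom of that test. The methods of the paper name a p of 0.05 or less under a Poisson distribution together with a fold of at least 1.07. A Poisson model leaves out the spread between pools and was an alternative here. No 2 libraries agreed within sampling noise (smallest chi-square over degrees of freedom 5.47). The p-values of edgeR set the difference between the groups against the spread between pools. Ratios of 2 members were tested with an exact permutation test (scipy 1.17.1). Fits were tested first on simulated data, in which the planted changes were far larger than the differences of the members. That run therefore does not bear on the power to see differences this small.

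The members and lists were chosen with earlier results of these data known. Named were all members, the 2 most abundant genes of each list and any list gene at an unadjusted p of 0.05 or less, and the 5 genes most like the members; a few genes that this rule names are not reported here. Gene positions are from RefSeq on GRCm38.p6. Alternatives were RLE and total-count scaling, no filter, DESeq2 1.42.0, limma 3.58.1 on log2(FPKM + 0.1) and log2(FPKM + 1), a Poisson model, a replicate block and leaving out each library, and for ratios CPM and a pseudocount of 0.1.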

Additional observations from a re-analysis of the deposited data

How the results depend on the processing

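The precision of these values is limited by 3 pools per group, and counting alone gives Pvalb a coefficient of variation of 5.07%. With 8 other settings that kept all libraries, 69 of 72 member values kept their sign. The exceptions were those of Slc6a9, whose log2 fold change was 0.00091 with total counts, 0.0047 with limma on log2(FPKM + 0.1) and 0.0046 with limma on log2(FPKM + 1). A Poisson model, without any spread between pools, gave 1 of 9 members an adjusted p of 0.05 or less (Calb2, log2 fold change -0.06). It gave 3 of 9 members an unadjusted p of 0.05 or less. Among all 15537 genes tested, this model gave 2043 an adjusted and 3901 an unadjusted p of 0.05 or less. Whether the share of members differs from that of all genes was not tested. The settings with a spread between pools called 0 to 11 genes. With each library left out in turn, the log2 fold changes ran from -0.027 to 0.055 for Gad1, from -0.014 to 0.057 for Gad2, from -0.037 to 0.020 for Slc6a9, from -0.0015 to 0.042 for Pax6 and from -0.16 to 0.052 for Pvalb, all of which changed sign, and the number of members higher in EFV-treated mice ran from 2 to 4. Tfap2a stayed above 0, and Slc32a1, Tfap2b and Calb2 below 0, without any 1 library, and no member was called. Same-numbered control and EFV libraries are not described as pairs. Their deviations from the mean of their group correlated at 0.124, 0.0729 and 0.102, each higher than with other numbers, which is at most a hint from the data. Deviations from a mean of 3 libraries depend on each other, so these correlations cannot decide whether libraries were paired. With the number as a replicate block no member was called and the median log2 fold change of the members was -0.01.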

Other observations

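Markers of the other cells of the retina were read beside the members in the same edgeR fit. Of 7 bipolar cell markers 3 lay above and 4 below 0 in log2 fold change, EFV over control (median 0.00), and of 7 ganglion cell markers 2 above and 5 below (median -0.05). Of 5 Müller cell markers 1 lay above and 4 below (median -0.03), and of 3 horizontal cell markers 1 above and 2 below (median 0.00). None of these genes had an unadjusted p of 0.05 or less, and most of these directions rested on single libraries. Without control library 2, 4 of 7 ganglion cell markers (median 0.01), 5 of 7 bipolar cell markers (median 0.02) and 2 of 3 horizontal cell markers (median 0.09) lay above 0. Without control library 3 or without EFV library 3, 0 of 7 ganglion cell markers did (medians -0.08 and -0.06). The Müller cell median stayed below 0 without any 1 library.

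RPE markers lay above 0 for 5 of 5 genes (median 0.43), of which Rpe65 and Lrat had an unadjusted p of 0.05 or less. They lay above 0 for 3 of 5 genes without EFV library 3 (median 0.35) and for 4 of 5 without control library 2 (median 0.21), whose RPE sum of 13.4 FPKM was the lowest. The oligodendrocyte marker Mbp had a log2 fold change of 0.20 and was also at that limit. Lens markers lay below 0 for 6 of 6 tested genes (median -3.51), all at that limit, but without control library 3 the median was -0.05, with 1 gene above and 5 below 0. The corneal markers lay above 0 for 2 and below 0 for 1 of 3 tested genes, and above 0 for 3 of 3 without control library 3. None of these genes passed after Benjamini-Hochberg adjustment over all genes.

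Of the 9 members 4 lie on mouse chromosome 2 (Gad1, Gad2, Slc32a1 and Pax6), which is a count of positions without a test.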
